A study of Mus musculus with 6 samples.

Results

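Macrophages of the left ventricle were followed through 10 marker genes, taken by symbol from the 43629 genes with a deposited count. Of these, 5 mark the resident type of cardiac macrophage (Folr2, Lyve1, Cd163, Mrc1 and F13a1) and 5 mark macrophages or leukocytes in general (Csf1r, Cd68, Lyz2, Laptm5 and Ptprc). All 10 were among the 13092 genes that passed the filter on low counts. The question was whether exposure to caffeine in utero changed macrophage RNA in the adult heart, and whether resident-type and general markers differed in this. The hearts came from male F1 offspring of CD-1 dams, an outbred mouse strain, and were taken at 1 year of age. Dams had been injected intraperitoneally once a day with normal saline (vehicle, n = 3 hearts) or with 20 mg/kg caffeine (n = 3 hearts) from E6.5 to E9.5, and 1 field of the sample labels ends the exposure at E10.5. No other treatment or genotype was given for either group. The sources used here do not say which dam each sequenced heart came from, so hearts may share a litter, and the p-values measure the spread between these hearts only.

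Cardiac macrophages fall into populations with separate histories. Resident macrophages settle in the heart largely before birth and renew themselves there, whereas other macrophages arise from blood monocytes that enter the tissue, mainly with injury. Both depend on signals through the receptor encoded by Csf1r, and resident cells are known for taking up debris and dying cells and for carrying scavenger and endocytic receptors such as CD163 and the mannose receptor MRC1.

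Total counts were 9228359 to 10483101 in the vehicle hearts and 7613011 to 9153997 in the caffeine hearts, so every caffeine library was shallower than every vehicle library, and 3 counts correspond to 0.286 to 0.394 CPM. CPM are counts scaled to a common library size with trimmed mean of M-values (TMM) factors. Markers of other cells placed the samples as labelled: the 7 genes of ventricular cardiomyocytes summed to 38000 to 48550 CPM, and the 3 atrial genes to 0.84 to 2.05 CPM. In whole tissue, fewer macrophages and less of an RNA per macrophage cannot be told apart.

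Per kilobase of exon, Lyz2 was by far the most abundant marker. Its level was 99.6 ± 34.3 RPKM, which is CPM per kilobase of exon (mean ± SD over the 6 hearts), and Lyz2 encodes a lysozyme that macrophages and other myeloid cells secrete. Lyve1 followed at 6.67 ± 1.95 RPKM, Cd68 at 5.12 ± 1.45, Folr2 at 4.89 ± 2.54 and F13a1 at 4.87 ± 1.46 RPKM. Laptm5 lay at 4.21 ± 1.02, Mrc1 at 3.65 ± 0.972, Csf1r at 3.46 ± 0.656 and Cd163 at 2.24 ± 0.777 RPKM. The least abundant was Ptprc, the gene of the pan-leukocyte phosphatase CD45, at 0.255 ± 0.0779 RPKM. The length used joins the exons of all transcripts of a gene. It is 18313 bases for Ptprc and 1257 to 6739 bases for the other markers, so the gap below Cd163 depends on it. Among neighbours in this order, the ranges over the 6 hearts were apart only between Lyz2 and Lyve1 and between Cd163 and Ptprc. From Lyve1 down to Cd163 each range overlapped the next, although Csf1r lay above Cd163 in 6 of 6 hearts. RPKM of resident-type and general markers were thus interspersed.

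Reads of some markers can be shared with other genes. The counts of Folr2 (chr7:101839988-101857194, minus strand, GRCm38) are the most exposed to this: 975 of its 1546 exon bases are also exon of Gm10602 on the opposite strand, and 47.1% of the 75-base windows of its transcripts also occur in Gm10602. The library kit does not mark strand and the strand setting of the counting was not stated, so reads of Folr2 and Gm10602 cannot be told apart there. Gm10602 itself had 15 to 40 counts per heart and a log2 fold change of -0.23 (edgeR's quasi-likelihood test, adjusted p = 0.885). Csf1r, on the plus strand, shares 873 of 5774 exon bases with Hmgxb3, and 13.9% of its windows. Lyz2 (chr10:117277331-117282321, minus strand) shares 5.96% of its windows with its paralog Lyz1, which had 1 to 28 counts per heart. F13a1 overlaps the antisense gene Gm30489 by 74 of 6739 exon bases. No window of the other markers was shared. In the same build, F13a1 lies at chr13:36867178-37050244, minus strand, Lyve1 at chr7:110850607-110863239, minus strand, and Cd163 at chr6:124304656-124330527, plus strand. Mrc1 lies at chr2:14229392-14332057, plus strand, and Cd68 at chr11:69664213-69666153, minus strand. Laptm5 lies at chr4:130913125-130936141, plus strand, and Ptprc at chr1:138062861-138175708, minus strand.

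Promoters of 3 markers are shown. Mrc1 and F13a1 followed the average of the resident-type markers most closely across the hearts, as described further on, and Laptm5 is a general marker. Of the markers read, these 3 are also the only ones with the longer motif described below, so they do not represent the others. Each is 300 bases (250 before and 50 after the annotated start, RefSeq, GRCm38.p6), read 5′ to 3′ on the strand of the gene. Capitals mark the core GAGGAA, recognised by PU.1, the myeloid factor encoded by Spi1, or its longer form GAGGAAG, on either strand (TTCCTC and CTTCCTC on the other strand). The longer form contains the shorter.
Mrc1 (chr2:14229164-14229463, plus strand): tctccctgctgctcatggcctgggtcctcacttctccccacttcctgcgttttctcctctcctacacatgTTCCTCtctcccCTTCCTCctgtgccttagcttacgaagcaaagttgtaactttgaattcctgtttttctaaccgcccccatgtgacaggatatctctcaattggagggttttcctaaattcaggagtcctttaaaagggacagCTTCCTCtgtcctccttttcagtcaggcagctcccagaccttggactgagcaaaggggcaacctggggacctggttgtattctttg
F13a1 (chr13:37050195-37050494, minus strand): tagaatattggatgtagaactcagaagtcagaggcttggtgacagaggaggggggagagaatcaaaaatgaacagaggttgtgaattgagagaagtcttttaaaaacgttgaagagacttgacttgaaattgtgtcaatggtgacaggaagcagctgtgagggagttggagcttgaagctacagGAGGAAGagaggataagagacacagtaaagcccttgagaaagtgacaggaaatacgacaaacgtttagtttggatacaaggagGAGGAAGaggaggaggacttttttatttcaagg
Laptm5 (chr4:130913066-130913365, plus strand): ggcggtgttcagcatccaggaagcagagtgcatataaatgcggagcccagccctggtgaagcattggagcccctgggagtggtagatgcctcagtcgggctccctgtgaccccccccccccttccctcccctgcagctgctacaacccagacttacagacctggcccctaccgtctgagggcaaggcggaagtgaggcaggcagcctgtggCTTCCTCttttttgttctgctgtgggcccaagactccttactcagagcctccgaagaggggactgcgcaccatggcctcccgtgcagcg
Windows were read for 8 of the 10 markers, all but Lyve1 and Csf1r, 11 windows in all, and 5 of these 8 held the core (Mrc1, F13a1, Cd68, Laptm5 and Ptprc) and 3 the longer form (Mrc1, F13a1 and Laptm5). Among 32851 promoter windows of the same length, 28.3% held the core and 13.6% the longer form, and over their 27025 genes these shares were 31.3% and 15.4%. In Mrc1 the matches begin 180, 167 and 35 bases before the start, in Laptm5 38 bases before it. These are matches of letters and not measured binding.

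No marker passed the thresholds of an adjusted p below 0.05 and a fold change above 1.5 between caffeine and vehicle hearts. This was 0 of 10 in edgeR's quasi-likelihood test, where 0.107% of all tested genes (14 of 13092) passed in either direction, and 0 of 10 also in DESeq2, edgeR's exact test and limma-voom. At an unadjusted p below 0.05, 2 of 10 were higher after caffeine, Folr2 and Cd163, both of the resident type, against 4.42% of all genes. This count was 0 without vehicle replicate 3, without caffeine replicate 1 and with library size only, and 4 without caffeine replicate 2 or with no filter on low counts. In 9 of 10 the log2 fold change was above 0, against 50.2% of all genes. Of these values, those of Mrc1, F13a1, Cd68, Laptm5 and Ptprc were smaller than their standard errors (SE). Those of Folr2 (0.73 ± 0.325, SE), Cd163 (0.60 ± 0.268), Lyz2 (0.50 ± 0.233) and Csf1r (0.34 ± 0.167) were larger than theirs. The count above 0 was 6 of 10 without caffeine replicate 1, 7 without vehicle replicate 3 or caffeine replicate 3, and 7 when libraries were scaled by their total alone, which put Cd68 and Laptm5 below 0 and left 32.7% of all genes above 0. It was 10 of 10 with DESeq2, limma-voom or the replicate number as a block, and without vehicle replicate 2 or caffeine replicate 2. Every caffeine heart lay above every vehicle heart in 1 of 10, Csf1r, against 7.11% of all genes.

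**Figure D1:**
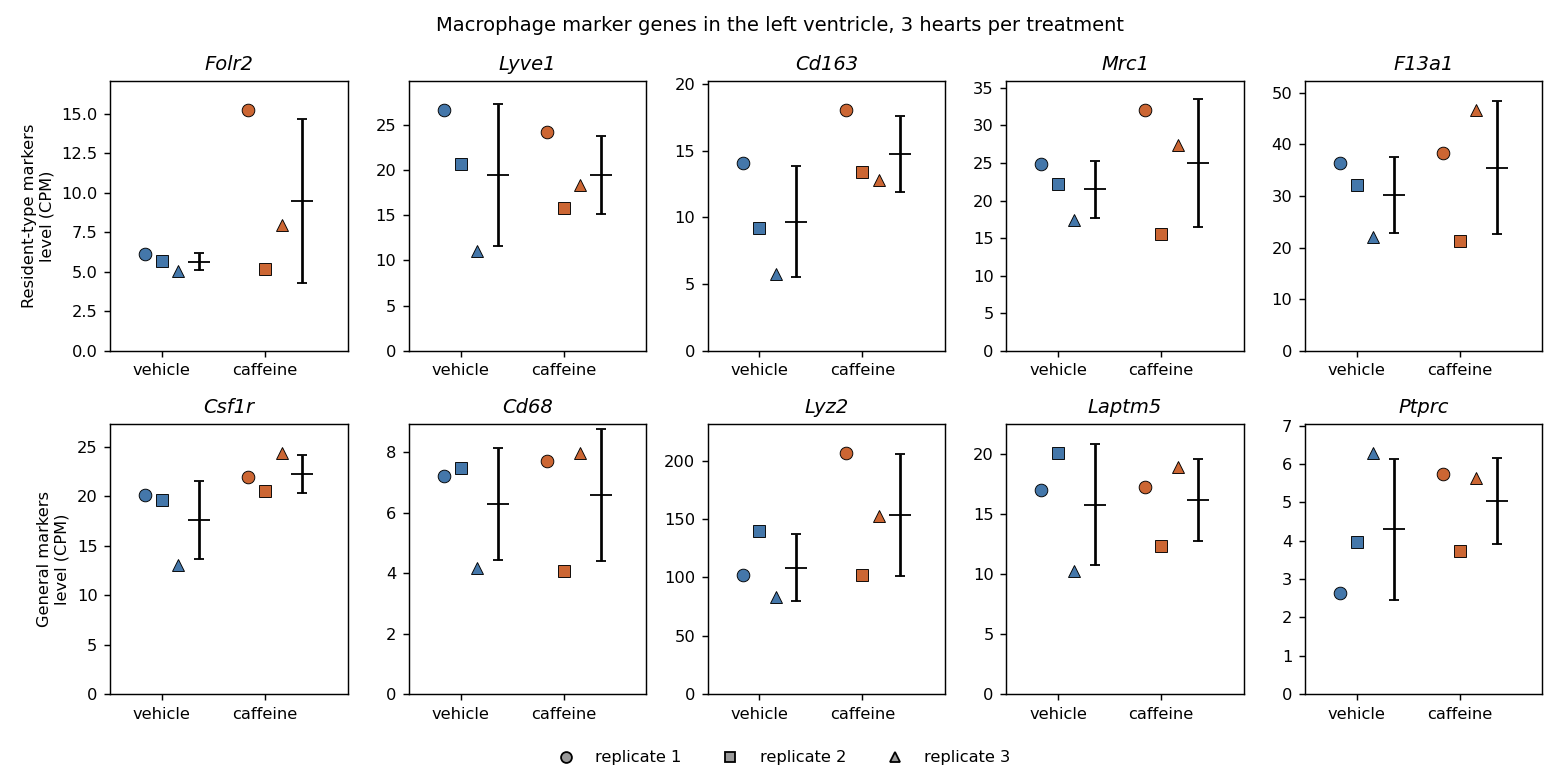
Level (CPM, linear axis from 0) of the 5 resident-type markers (upper row) and the 5 general markers (lower row) in each heart, vehicle in blue and caffeine in orange, with symbols for the replicate number and bars for mean ± SD (n = 3). The treatments overlap in every panel except that of Csf1r, and the triangle of vehicle replicate 3 and the square of caffeine replicate 2 lie lowest in their groups in most panels.

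Among the resident-type markers, Folr2, which encodes folate receptor beta of macrophages, differed most between the groups. Its levels were 6.16, 5.68 and 5.07 CPM in the vehicle hearts and 15.3, 5.19 and 7.97 CPM in the caffeine hearts (63, 60 and 50 counts against 109, 46 and 68). The vehicle hearts were close together, and caffeine replicate 1 stood alone at the top while caffeine replicate 2 lay within the vehicle range. The mean was 5.63 ± 0.546 CPM after vehicle and 9.48 ± 5.20 CPM after caffeine (SD, n = 3). The fitted fold was 1.65 (95% interval 1.01 to 2.72), with an unadjusted p of 0.0474 and an adjusted p of 0.561 in edgeR's quasi-likelihood test. The exact permutation test gave two-sided p = 0.3, and 3 against 3 hearts cannot go below 0.1. Without caffeine replicate 1 the log2 fold change dropped from 0.73 to 0.22, and without caffeine replicate 2 it was 1.03. With no filter on low counts, Folr2 passed both thresholds (log2 fold change 0.70, adjusted p = 0.0429 in the quasi-likelihood test), a setting in which 240 of 22407 genes passed.

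Cd163, the scavenger receptor that binds haemoglobin complexed with haptoglobin, was at 14.1, 9.18 and 5.77 CPM in the vehicle hearts. In the caffeine hearts it was at 18.1, 13.4 and 12.8 CPM. Caffeine replicates 2 and 3 lay above vehicle replicates 2 and 3 and below vehicle replicate 1, so the groups overlapped by that heart alone. The fold was 1.52 (95% interval 1.01 to 2.28), with an adjusted p of 0.561 in the quasi-likelihood test and an exact permutation p of 0.3. The log2 fold change of 0.60 moved to 0.97 without vehicle replicate 1 and to 0.34 without vehicle replicate 3. With no filter on low counts its adjusted p was 0.0424 in the same test, at a log2 fold change of 0.58, just under the fold threshold. Hp, the gene of haptoglobin, had a log2 fold change of -0.08 (adjusted p = 0.984), which rested on caffeine replicate 3. Its levels were 2.52, 0.903 and 7.74 CPM in the caffeine hearts and 3.12 to 4.98 CPM in the vehicle hearts, and without that replicate the log2 fold change was -1.24 (unadjusted p = 0.0171, edgeR's quasi-likelihood test).

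Lyve1 encodes a hyaluronan receptor that resident macrophages share with lymphatic endothelium. Its levels were 26.7, 20.6 and 11.0 CPM after vehicle and 24.2, 15.8 and 18.4 CPM after caffeine. All 3 caffeine hearts lay inside the vehicle range, and the means were 19.5 ± 7.88 and 19.5 ± 4.31 CPM. The log2 fold change was -0.01 (95% interval -0.60 to 0.59), and ran from -0.29 to 0.29 as single hearts were left out. Of the 5 tested lymphatic markers, Mmrn1 was highest (log2 fold change 0.82, adjusted p = 0.588) and Flt4, the receptor of lymphatic growth factors, lowest (-0.20, adjusted p = 0.729). Ccl21a had no count in any heart. The summed level of the lymphatic list was 111 to 121 CPM after vehicle and 94.1 to 117 CPM after caffeine. Most of this sum was Prox1, with 73.5 to 93.7 CPM after vehicle and 60.5 to 84.8 CPM after caffeine. The part of lymphatic cells in this sum and in the Lyve1 level was not tested.

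Mrc1, the mannose receptor, was at 24.9, 22.2 and 17.4 CPM after vehicle and 32.1, 15.6 and 27.4 CPM after caffeine. F13a1, which encodes the catalytic subunit of the clotting transglutaminase factor XIII, was at 36.4, 32.1 and 22.1 CPM after vehicle and at 38.4, 21.3 and 46.7 CPM after caffeine. In both genes the caffeine hearts were spread more widely than the vehicle hearts, with caffeine replicate 2 below all 5 other hearts. The log2 fold changes of 0.21 ± 0.230 (SE) for Mrc1 and 0.23 ± 0.253 for F13a1 were within their errors (adjusted p = 0.857 and 0.861, edgeR's quasi-likelihood test). Both fell just below 0 when 1 caffeine heart was left out, replicate 1 for Mrc1 (-0.0043) and replicate 3 for F13a1 (-0.026).

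Csf1r encodes the receptor of the growth factors CSF1 and IL-34, which macrophages need to survive. It was at 20.1, 19.7 and 13.1 CPM after vehicle and at 22.0, 20.5 and 24.4 CPM after caffeine. The groups did not overlap, but caffeine replicate 2 was close to vehicle replicates 1 and 2, and vehicle replicate 3 stood apart below them. The mean was 17.6 ± 3.95 CPM after vehicle and 22.3 ± 1.95 CPM after caffeine, a fold of 1.26 (95% interval 0.979 to 1.63). The adjusted p was 0.608 in the quasi-likelihood test, and the exact permutation p was 0.1, the smallest that 3 against 3 hearts allow. Without vehicle replicate 3 the log2 fold change was 0.16 in place of 0.34. Its ligands had log2 fold changes of 0.00 for Csf1 (adjusted p = 0.999) and 0.32 for Il34 (adjusted p = 0.780).

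Lyz2 was at 102, 139 and 83.5 CPM after vehicle and at 207, 102 and 153 CPM after caffeine. Caffeine replicates 1 and 3 lay above all vehicle hearts, and caffeine replicate 2 lay among them, next to vehicle replicate 1. The fold was 1.42 (95% interval 0.991 to 2.02), with an adjusted p of 0.581 in the quasi-likelihood test and an exact permutation p of 0.3. Without caffeine replicate 1 the log2 fold change of 0.50 dropped to 0.23. With no filter on low counts its adjusted p was 0.00098 at a fold below the threshold. The study lists Folr2 and Lyz2 among the genes it called with edgeR at the same thresholds, whereas neither passed them in the main fit here. Why the outcomes differ was not tested. The study used these same libraries, so the direction of both genes here is not independent evidence.

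Cd68 encodes a lysosomal membrane glycoprotein, and Laptm5 a lysosomal membrane protein of blood cells. Cd68 was at 7.23, 7.48 and 4.15 CPM after vehicle and 7.70, 4.06 and 7.97 CPM after caffeine. Laptm5 was at 17.0, 20.1 and 10.2 CPM after vehicle and 17.2, 12.3 and 18.9 CPM after caffeine. Each group held 2 high hearts and 1 low heart in both genes, and the log2 fold changes were 0.05 ± 0.292 (SE) for Cd68 and 0.03 ± 0.235 for Laptm5. Both changed sign when libraries were scaled by their total alone (-0.023 and -0.050). Ptprc was at 2.64, 3.97 and 6.28 CPM after vehicle and at 5.74, 3.73 and 5.63 CPM after caffeine, from only 27 to 62 counts per heart. Here vehicle replicate 3 was the highest of all 6 hearts, and the log2 fold change was 0.22 ± 0.316.

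**Figure D2:**
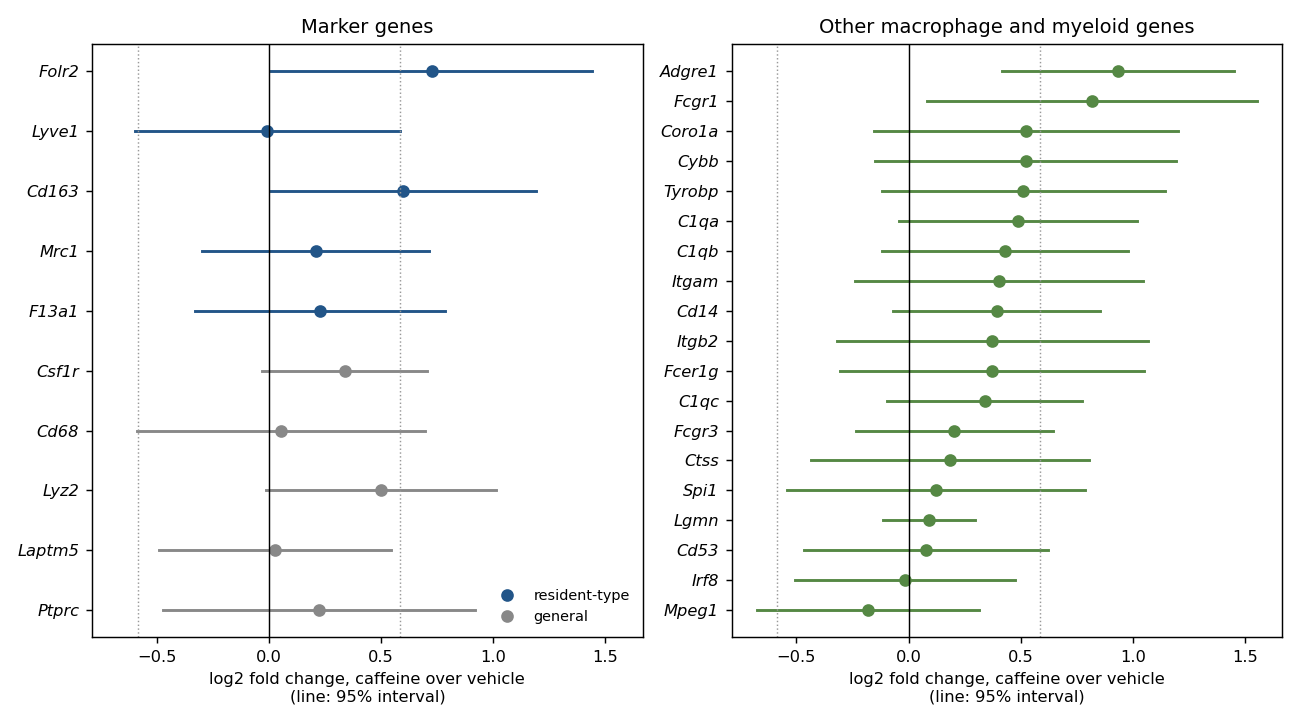
Fitted log2 fold change of caffeine over vehicle (points) with 95% intervals (lines) for the 10 markers (left, resident-type in blue, general in grey) and 19 other macrophage and myeloid genes (right), with dotted lines at a fold of 1.5 in either direction. The intervals of Folr2 and Cd163 begin just above 0 and those of the other 8 markers include 0, while Adgre1 and Fcgr1 lie highest on the right.

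Resident-type and general markers were not separated by treatment. The mean log2 CPM of the 5 resident-type markers was 3.86 ± 0.406 after vehicle and 4.20 ± 0.445 after caffeine, a difference of 0.34. For the 5 general markers it was 3.91 ± 0.246 and 4.16 ± 0.348, a difference of 0.24. The resident-type mean minus the general mean was 0.31, -0.22 and -0.25 in the vehicle hearts and 0.24, -0.03 and -0.08 in the caffeine hearts. Replicate 1 stood highest in both groups and the groups overlapped. The difference between the group means, 0.09, was smaller than the SD within the vehicle hearts (0.317) or the caffeine hearts (0.173), and it lay between -0.0047 and 0.28 as single hearts were left out. Without Lyve1 among the resident-type markers it was 0.16, and with medians in place of means 0.02. No p was computed for this score, since the markers were chosen with earlier results of these data known.

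**Figure D3:**
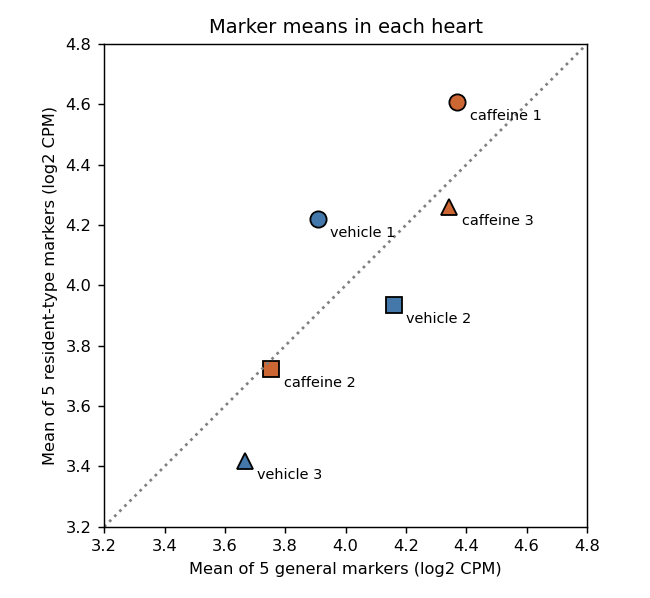
Mean log2 CPM of the 5 resident-type markers against that of the 5 general markers in each of the 6 hearts, with the dotted line where both are equal. Hearts range along the line from vehicle replicate 3 (3.42 and 3.67) to caffeine replicate 1 (4.61 and 4.37), and both treatments occur on either side of it.

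The markers varied together from heart to heart. Vehicle replicate 3 was the lowest vehicle heart in 9 of 10 markers, all but Ptprc, and in 14 of the 19 other macrophage and myeloid genes tested, against 32.7% of all genes. Caffeine replicate 2 was the lowest caffeine heart in 9 of 10 markers, all but Cd163, and in 15 of the 19, against 33.0% of all genes. Vehicle replicate 1 was the highest vehicle heart in all 5 resident-type markers but in 1 of the 5 general markers, where vehicle replicate 2 was highest in 3. Caffeine replicate 1 was the highest caffeine heart in 4 of the 5 resident-type markers and in 2 of the 5 general markers. The summed level of the resident-type markers ranged from 61.4 to 108 CPM within the vehicle hearts and from 71.3 to 128 CPM within the caffeine hearts.

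**Figure D4:**
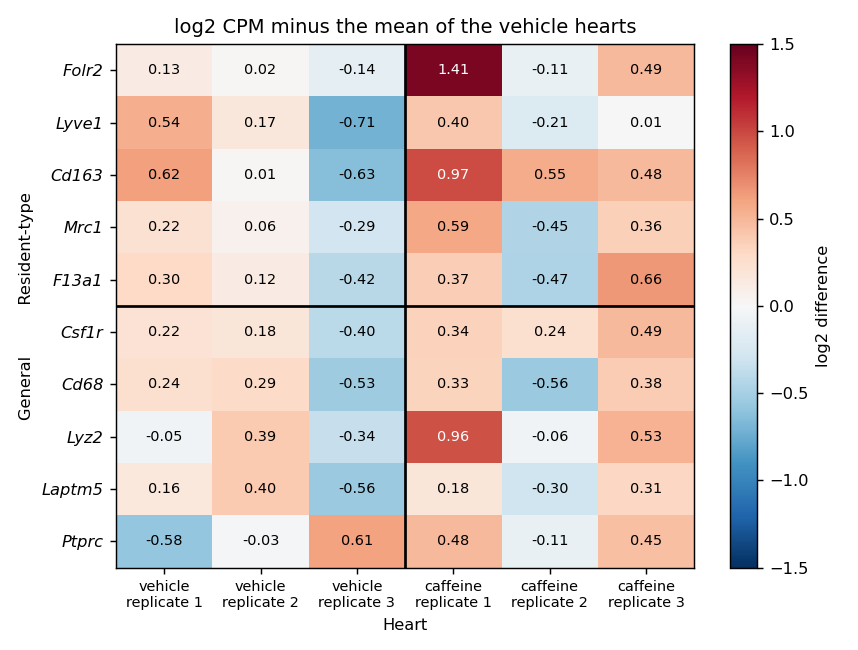
Log2 CPM of each marker in each heart minus the mean of the 3 vehicle hearts, red above and blue below, with vehicle hearts left and caffeine hearts right of the line and resident-type markers above general markers. The column of vehicle replicate 3 is blue except at Ptprc, and the column of caffeine replicate 2 is mostly blue, whereas Cd163 and Csf1r are red there.

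Over the 6 hearts, Mrc1 had the highest Pearson correlation with the average of the standardised resident-type markers (r = 0.940), of which it is a part, followed by F13a1 (0.872), Lyve1 (0.862), Folr2 (0.844) and Cd163 (0.824). Among the general markers, which are no part of that average, r was 0.866 for Cd68, 0.843 for Lyz2, 0.777 for Csf1r and 0.776 for Laptm5, but -0.07 for Ptprc. Outside all lists, the genes most like the resident-type average out of 12994 compared were Pirb (r = 0.991), Vps72 (0.986), Uba7 (0.984), Fam69b (0.979) and Ly6a (0.977). Pirb, which encodes an inhibitory receptor of myeloid cells, ran from 1.32 to 2.93 CPM after vehicle and from 1.81 to 5.04 CPM after caffeine. These correlations describe 6 points that also share library depth and tissue composition, and the best of many genes will be high in any 6 hearts.

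Further genes listed for resident macrophages, beyond the 5 followed here, showed no common direction. Of 14 listed, 12 were tested, with 6 above and 6 below 0 and a median log2 fold change of 0.02, next to 0.00 for all tested genes. Cx3cr1, the fractalkine receptor, was highest at 0.29, 2.08 and 1.22 CPM after vehicle and 3.08, 1.24 and 3.75 CPM after caffeine (log2 fold change 1.14, adjusted p = 0.599), with overlapping groups. Igfbp4 was lowest (-0.08, adjusted p = 0.937). Gas6 and Igfbp4 stood at 76.9 and 26.8 RPKM, far above Csf1r at 3.46 RPKM (means over all hearts). The part of other cells in the levels of this list was not tested. Timd4 and Cd209g, with 2 to 10 counts per heart, were below the filter. None of the 12 had an unadjusted p below 0.05.

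Of 20 further macrophage and myeloid genes, 19 were tested. Of these, 17 had a log2 fold change above 0, against 50.2% of all genes, and the median was 0.37. The summed level of the 20 was 263 to 347 CPM after vehicle and 291 to 471 CPM after caffeine. Without caffeine replicate 1 the median dropped to 0.14, and without vehicle replicate 3 to 0.20. Highest was Adgre1, which encodes the macrophage surface protein F4/80, at 4.98, 3.88 and 3.95 CPM after vehicle and 9.24, 5.76 and 9.62 CPM after caffeine. All caffeine hearts lay above all vehicle hearts, and caffeine replicate 2 was again the lowest of its group. The log2 fold change was 0.93 ± 0.236 (SE), from 0.80 to 1.14 as single hearts were left out, with an unadjusted p of 0.00226 and an adjusted p of 0.226 in the quasi-likelihood test. Fcgr1, the high-affinity IgG receptor CD64, also did not overlap, with 0.78 to 0.91 CPM after vehicle and 1.35 to 1.76 CPM after caffeine (log2 fold change 0.82, adjusted p = 0.512). It had only 8 to 15 counts per heart. Every caffeine heart lay above every vehicle heart in 2 of these 19 genes, against 7.11% of all genes. Lowest was Mpeg1, a pore-forming protein of macrophages, at -0.18 (adjusted p = 0.882), and Aif1 was below the filter. C1qa, which the study also called from these libraries, had a log2 fold change of 0.49 (adjusted p = 0.606, quasi-likelihood test). None of these genes passed the thresholds.

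Genes of monocytes and recruited macrophages were low, with summed levels of 5.37 to 9.27 CPM after vehicle and 5.08 to 12.7 CPM after caffeine. Of 8 listed, Ly6c2, Plac8, Chil3 and Ms4a4c had 0 to 7 counts per heart and were not tested. All 4 tested had a log2 fold change above 0, against 50.2% of all genes, and none had an unadjusted p below 0.05. The median was 0.56, which was 0.28 without caffeine replicate 1 and 0.37 without vehicle replicate 1. The lowest log2 fold change was that of Ccr2, the receptor that draws monocytes out of the marrow (0.18, adjusted p = 0.950). Ccr2 was at 2.15 to 3.97 CPM after vehicle and at 1.24 to 4.62 CPM after caffeine, so the caffeine hearts enclosed the vehicle hearts. Of 10 genes of injury-associated and lipid-handling macrophages, 5 were tested, from Ccl2 (0.05, adjusted p = 0.987) to Gpnmb (1.16, unadjusted p = 0.0142, adjusted p = 0.391). Gpnmb, a glycoprotein of lipid-laden macrophages, was highest in caffeine replicate 2 (3.95 CPM), which among the caffeine hearts had the lowest level of most markers. Apoe, another gene that the study called from these libraries, had a log2 fold change of 0.19 (adjusted p = 0.849, quasi-likelihood test). Trem2, Spp1, Arg1, Il1b and Tnf were below the filter.

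Relatives and partners of the markers were compared to see which family members the heart used. Folr1 and F13b, the other folate receptor and the carrier subunit of factor XIII, had no count in any heart, which allows at most 0.286 to 0.394 CPM by counting error. Of 14 listed genes of this kind 9 were tested, 6 above and 3 below 0, from Hp to Il34, with a median log2 fold change of 0.06. Mrc2, the paralog of Mrc1, had a log2 fold change of 0.08. The other 5 were below the filter, among them Lyz1, Has2 and Stab2.

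**Figure D5:**
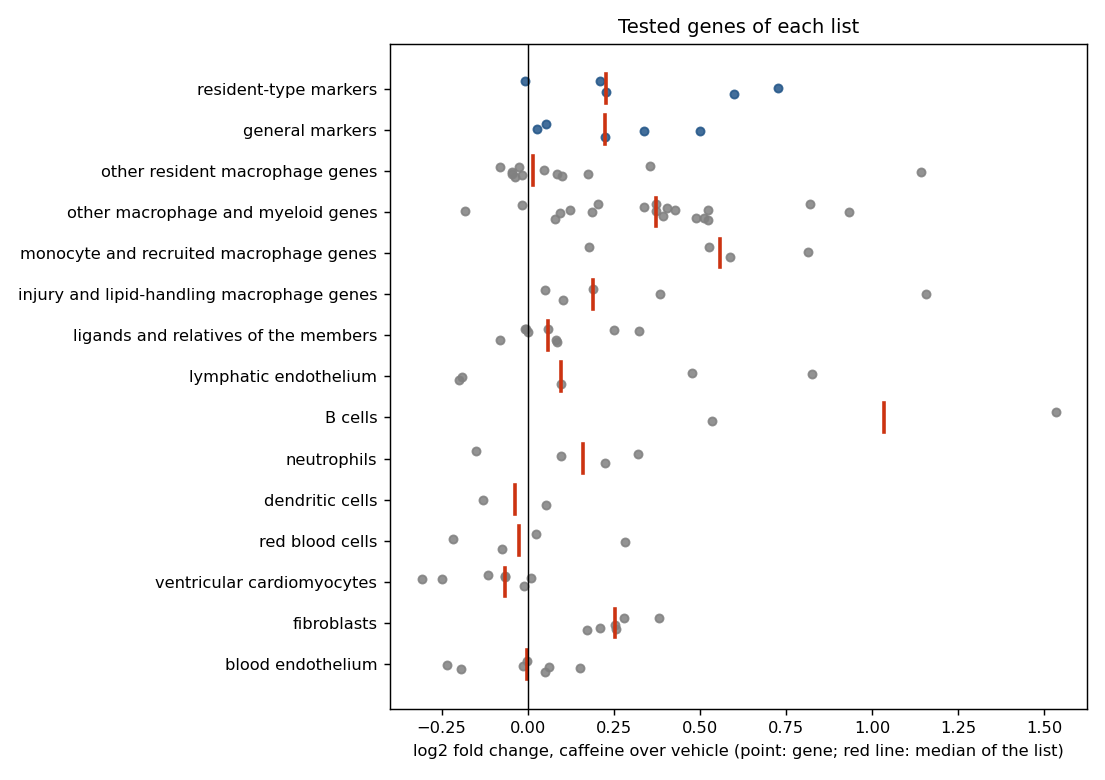
Log2 fold change of caffeine over vehicle for each tested gene (points) of the lists with at least 2 tested genes, with the median of each list in red. Both marker groups and the list of other macrophage and myeloid genes have medians above 0 (0.23, 0.22 and 0.37), as does the list of monocyte and recruited macrophage genes (0.56, 4 genes), while that of other resident macrophage genes is at 0.02.

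Markers of other leukocytes, which also carry Ptprc, were measured beside it. None of the 11 T and NK cell genes passed the filter, and their summed level was 1.70 to 2.84 CPM after vehicle and 3.61 to 4.62 CPM after caffeine. Of the B cell genes 2 of 7 were tested, Ighm (2.74 to 7.51 CPM over the 6 hearts, log2 fold change 0.54) and Igkc (1.53, adjusted p = 0.358), while Cd79a, Cd79b, Ms4a1 and Cd22 had 0 to 6 counts per heart. Neutrophil genes (4 of 7 tested, without Ly6g, Retnlg and Mmp8) had a median of 0.16, from Cxcr2 (-0.15) to Csf3r (0.32), and the list summed to 7.76 to 12.97 CPM after vehicle and 4.18 to 20.0 CPM after caffeine. Dendritic cell genes were tested for Zbtb46 (-0.13) and Clec9a (0.05), while Flt3, Xcr1, Itgax, Cd209a and Siglech were below the filter. That list summed to 20.3 to 24.7 CPM after vehicle and 19.3 to 23.8 CPM after caffeine. Most of this was Zbtb46, with 15.73 to 21.17 CPM after vehicle and 14.45 to 18.06 CPM after caffeine. Kit (0.83) was the only mast cell gene tested of 7. Among the other tissue lists, the 6 fibroblast genes all had log2 fold changes above 0, against 50.2% of all genes. Their median was 0.25, from 0.17 for Col1a2 to 0.38 for Col1a1. At an unadjusted p below 0.05, 3 of the 6 were higher, against 4.42% of all genes. They summed to 770 to 881 CPM after vehicle and 943 to 1082 CPM after caffeine. Dcn made up most of this sum, with 505 to 581 CPM after vehicle and 608 to 767 CPM after caffeine. Only in Dcn, 1 of the 6, did every caffeine heart lie above every vehicle heart, against 7.11% of all genes. The median of the 7 ventricular genes was -0.07, from Myh6 (-0.31) to Myl3 (0.01), and that of the 7 blood endothelial genes was -0.003, from Emcn (-0.24) to Egfl7 (0.15). Red blood cell genes (4 of 5 tested, without Hba-a2) had a median of -0.03, from Hbb-bt (-0.22) to Hbb-bs (0.28). Myl4 was the only atrial gene tested (-0.26), next to Myl7 and Sln below the filter, and of the adipocyte genes Adipoq, Plin1 and Cfd none was tested. None of these genes passed the thresholds. The part of these cells in the marker levels was not tested.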

How the data were processed

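The authors selected poly(A) RNA from left ventricles, prepared libraries with a kit that does not mark strand, sequenced 75-base single-end reads in 1 run, cleaned the reads with FastQC and aligned them by Tophat2 to the mm10 genome, and HTSeq gave the reads of each Ensembl release 79 gene. The deposited values are these raw counts, with no replicates pooled and no normalization, and tool versions are not given in the sources used here. Groups and replicate numbers came from the sample labels. Counting was not repeated, and reads that fit more than 1 gene may be lost from it.

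Counts of all 6 hearts were filtered with filterByExpr (minimum count 10, minimum total 15), scaled by TMM and fitted with edgeR's quasi-likelihood test, with treatment as the only term. A gene was called at a Benjamini-Hochberg adjusted p below 0.05 over all 13092 tested genes and a fold change above 1.5, the thresholds of the study, which does not name its edgeR test. Standard errors came from the F statistic, and 95% intervals from its degrees of freedom. The exact two-sided permutation test compared log2 CPM (prior count 2) over the 20 labelings. RPKM were computed here from exon lengths of GENCODE release M21 (GRCm38), which also gave positions and overlaps. Replicates of a group differed by more than sampling noise (chi-square per degree of freedom 5.37 to 14.0), so each counted as 1 sample. The fits were tested on simulated data whose fold changes were larger than those of the markers, so that check does not cover changes as small as theirs. The 95% intervals of fold changes include the spread between hearts, whereas the floors of 3 counts cover counting error only.

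The 10 markers and all 19 gene lists were chosen with earlier results of these data known. In each list the highest and lowest tested genes are named, and genes below the filter where these are 5 or fewer, apart from items not reported here. Named outside this rule, after their values were seen, were Fcgr1, Mrc2, Csf1, Gas6, Prox1, C1qa, Apoe, Dcn and the genes that share reads with a marker. Nothing in the sources used here pairs the hearts by replicate number. Deviations of same-numbered hearts from their group means correlated at -0.0375 to 0.045, and of others at -0.0828 to 0.12. With 3 same-numbered pairs, these values cannot exclude a pairing. Alternatives were other scalings, filters and tests, the replicate number as a block, each heart left out, and other forms of the marker score. Fits used edgeR 4.0.16, limma 3.58.1 and DESeq2 1.42.0 under R 4.3.3, and summaries and plots used Matplotlib 3.10.9, SciPy 1.17.1, NumPy 2.4.6 and pandas 2.3.3 under Python 3.11.15.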

Additional observations from a re-analysis of the deposited data

How the results depend on the processing

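Of 140 marker fold changes recomputed under the alternatives, 121 kept their sign and their side of the thresholds, 1 passed them (Folr2 with no filter) and 18 changed sign. Among the changes of sign were Lyve1 at 0.00018 with DESeq2 and 0.050 with limma-voom, and Cd68 (-0.023) and Laptm5 (-0.050) with library size only. With hearts left out in turn the ranges were -0.29 to 0.29 for Lyve1, -0.0043 to 0.46 for Mrc1, -0.026 to 0.49 for F13a1, -0.17 to 0.31 for Cd68, -0.20 to 0.24 for Laptm5 and -0.031 to 0.59 for Ptprc. With the replicate number as a block, Lyve1 was at 0.047, 40 genes were called in place of 14 and no marker was called. The count of called markers was 0 in every alternative except no filter, where it was 1. The number of all genes called was 14 also with DESeq2-type size factors, a minimum of 10 counts in every sample, limma-voom and no fold threshold, but 27 with library size only, 240 with no filter, 67 with DESeq2 and 94 with the exact test. It ran from 4 (without vehicle replicate 2 or caffeine replicate 3) to 28 (without vehicle replicate 3) as hearts were left out, with 8 without caffeine replicate 1, 22 without caffeine replicate 2 and 27 without vehicle replicate 1. Why these counts moved was not tested. Leave-one-out values of the median of other myeloid genes and of the number of markers above 0 were chosen after seeing the data. With 3 hearts per group, the 95% interval of every marker but Laptm5 reached a fold change of 1.5. The low counts of Ptprc and of monocyte genes limit their precision further.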
